A study of Danio rerio with 4 samples.

Results

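The genes described here encode the semaphorins, plexins, Eph receptors, ephrins, slits, robos, netrins and Unc5 receptors of the zebrafish, the main families of secreted and membrane-bound guidance cues. They were taken by name, as every gene whose symbol on the array begins with sema, plxn, epha, ephb, efna, efnb, robo, unc5 or ntn, or with slit and a digit. This gave 65 of the 14434 named genes on the array, covered by 99 probes. The prefix unc5 also took in unc50, which encodes a Golgi protein and is no netrin receptor, and it is kept apart below. Testing required a probe brighter than the 40th percentile on 2 or more of the 4 arrays, and 57 of the 65 genes had such a probe.

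RNA came from whole hearts dissected by hand at 72 hours post fertilization (hpf) from ccm2 m201 mutant embryos and from wild-type (WT) embryos, with 2 samples in each group. Each sample was a pool of hearts hybridised to 1 single-colour array, and no other allele or agent is named in the titles or genotypes. The description of both mutant samples also speaks of Bmp2b overexpression, which the other labels do not mention, so whether these hearts carried that treatment is not settled. The Ccm2 protein belongs to the complex named for cerebral cavernous malformations, which endothelial cells need, and the comparison asks which cardiac genes differ when it is mutated. Nothing in the labels ties the pools to separate clutches, so a p-value measures only the spread between these samples, which may be technical, and 2 arrays per group limit the precision of every value.

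Signals are given as log2 of the processed signal, scaled so that the 75th percentile of each array lies at 7.49. On this scale the dimmest feature taken as well above background lay between 2.6 and 3.2, depending on the array. Between 54.0% and 55.9% of all features were well above background. The ccm2 transcript itself had signals of 5.16 and 4.92 in mutants, against 5.45 and 5.79 in WT, a difference that did not pass the test (-0.58 ± 0.22, SE, adjusted p = 0.167). Cardiomyocyte markers had summed linear signals of 233830 and 176110 in mutants, against 219661 and 200769 in WT, and limma called 0 of the 9 (1 at an unadjusted p under 0.05).

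Guidance cues steer growing axons, and the same families act in blood vessels and the heart. Semaphorins signal through plexins, the secreted class 3 members usually together with neuropilins. Ephrins are bound to the membrane and signal to Eph receptors on the neighbouring cell and back again. Slits are secreted ligands of robos, and netrins bind receptors that include the Unc5 family. In vessels, ephrin-B2 marks arteries and EphB4 marks veins, PlexinD1 and Robo4 are endothelial receptors, and in zebrafish plxnd1 restrains the sprouting of trunk vessels.

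Of the 57 tested guidance genes, 9 rose and 5 fell in ccm2 mutant hearts, and 43 did not pass the test. The genes that rose were the class 3 semaphorin genes sema3aa, sema3d, sema3ga and sema3gb, the plexin genes plxnc1 and plxnd1, the Eph receptor gene ephb4b, the ephrin gene efna5b and the endothelial receptor gene robo4. Those that fell were the plexin gene plxna4, the Eph receptor genes epha4a and epha4b, the ephrin gene efnb2b and the slit gene slit1b. The called share was 24.6% of the tested guidance genes, against 17.1% of all 11526 tested genes. Among all tested genes 8.10% were higher and 9.03% lower in mutants, at 934 and 1041 genes. With median scaling those counts were 1144 and 809, and with unscaled signals 1295 and 770, and these scalings moved the median of all genes from -0.04 to 0.12 and 0.17. The median log2 difference was 0.10 over the tested guidance genes and -0.04 over all tested genes. It was 0.25 over the guidance genes with median scaling and 0.31 with unscaled signals. Groups that did not overlap were found in 41 of the 57 genes (71.9%), close to the 67.8% among all tested genes. The calls mostly did not survive the loss of an array, which left 1 sample in a group. Calls over all tested genes fell as well in those fits. With 1 sample in a group, such a fit cannot show whether a single call holds. Normexp background correction of the raw median signals adds 50 to every signal, which shrinks the differences of dim genes. It gave smaller differences for most of the called genes. The log2 differences were then 0.69 for sema3aa, 0.42 for plxnc1, 0.70 for robo4, 1.01 for sema3gb and 0.61 for sema3d. They were -1.17 for plxna4, -0.91 for epha4b, -0.58 for epha4a and -0.60 for slit1b. All 9 of these passed the test, whereas efna5b and sema3ga did not.

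**Figure D1:**
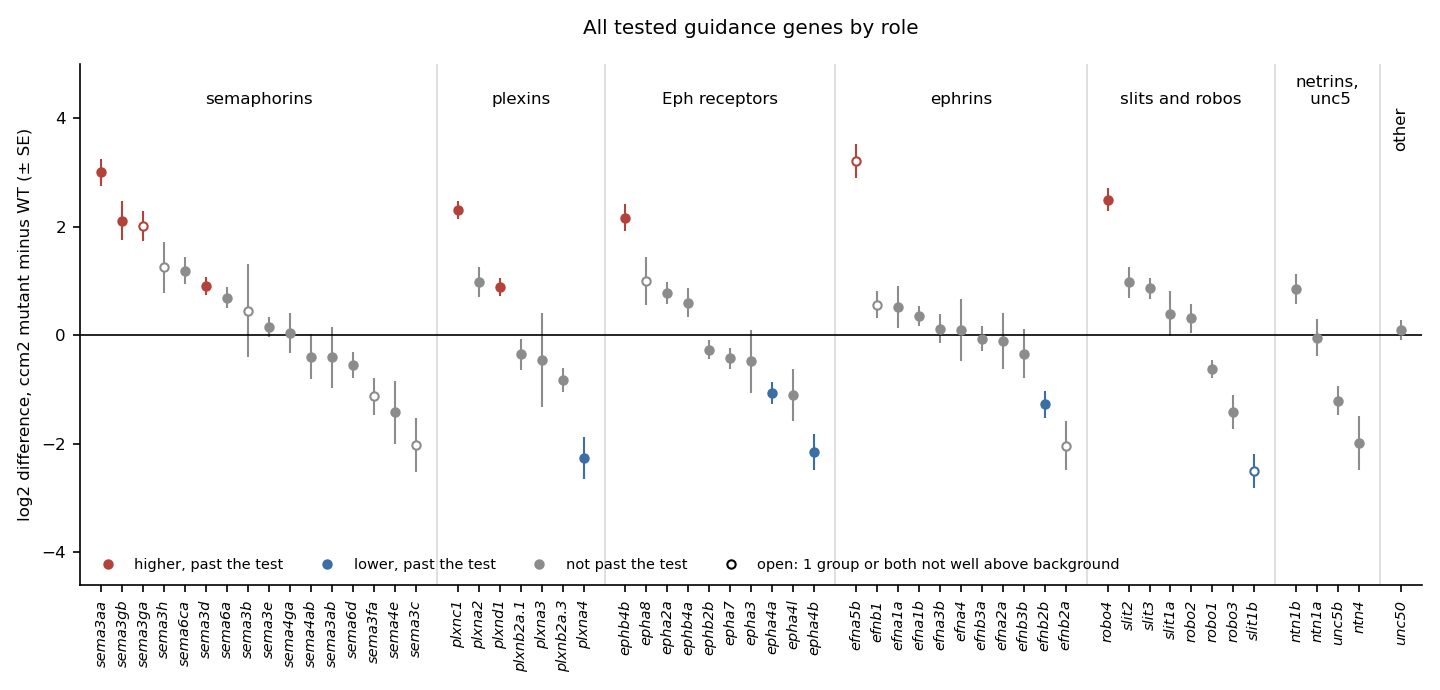
Log2 difference (ccm2 mutant minus WT) with its standard error for the 57 tested guidance genes, grouped by role, from 2 arrays per group. Red points are the 9 genes that rose, blue points the 5 that fell and grey points the 43 that did not pass, and open points mark genes with a group not well above background, whose size is not measured.

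By their brightest probes, the semaphorin genes past the test all belonged to class 3, the secreted members. Of 10 tested class 3 genes 4 rose and 0 fell, with 6 of the 10 at an unadjusted p under 0.05, and of 6 tested genes of the transmembrane classes 0 passed, with 2 of the 6 at an unadjusted p under 0.05. Over all tested genes 17.1% were called and 4110 of 11526 had such an unadjusted p. Whether the classes differ was not tested. sema3aa, a zebrafish copy of the gene for Semaphorin 3A, which repels axons and binds Neuropilin-1, had signals of 5.59 and 6.13 in mutants, against 2.84 and 2.88 in WT, where 1 of the 2 arrays was well above background. The difference was 3.0 ± 0.25 (SE, adjusted p = 0.0111), measured against a WT level at the edge of background. sema3gb, related to a mouse gene made by endothelial cells, had 7.16 and 6.28 in mutants, against 4.70 and 4.53 in WT. It rose by 2.11 ± 0.36 (SE, adjusted p = 0.0358), and the mutant arrays lay further apart than the WT arrays. Its duplicate sema3ga passed the test too (adjusted p = 0.0246), with 2.68 and 3.14 in mutants, where 1 of 2 arrays was well above background, against 1.11 and 0.68 in WT, where neither was. That is too dim for a fold, and the sign of this gene turned when raw median signals were used (-0.0090).

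sema3d, which encodes a secreted guidance cue, showed a small and tight difference. It had 7.46 and 7.44 in mutants, against 6.52 and 6.55 in WT, and rose by 0.92 ± 0.17 (SE, adjusted p = 0.0402), or 1.89-fold. sema3ab, the duplicate of sema3aa, had 5.21 and 3.68 in mutants, against 4.89 and 4.83 in WT, so the groups overlapped (-0.41 ± 0.57, SE, adjusted p = 0.671). The difference between the duplicates was not tested. sema3e, the gene of a ligand that binds PlexinD1 directly, had 4.81 and 4.95 in mutants, against 4.84 and 4.62 in WT (0.15 ± 0.19, SE, adjusted p = 0.645). sema3c, a class 3 gene that in mouse guides the outflow tract, had 1.44 and 0.27 in mutants, where neither array was well above background, against 2.60 and 3.15 in WT, where 1 of 2 was. It did not pass by this probe (adjusted p = 0.0701). Its second probe had 0.38 and 0.11 in mutants, against 3.04 and 3.07 in WT, again with 1 WT array well above background, and passed (adjusted p = 0.00899). Both probes are too dim for a fold.

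Among the transmembrane semaphorins, sema6ca stayed just outside the threshold by its brightest probe, with 12.03 and 12.27 in mutants, against 10.74 and 11.17 in WT. The difference was 1.19 ± 0.24 (SE, adjusted p = 0.0501). Class 6 semaphorins such as this one are membrane-bound ligands of class A plexins. The 2 other probes of sema6ca gave 2.01 (adjusted p = 0.0345) and 1.39 (adjusted p = 0.0607), all upward. sema3h lay at the edge of the filter, with 2.17 and 3.04 in mutants, against 1.80 and 0.91 in WT (adjusted p = 0.162). The other 7 tested semaphorin genes, sema3b, sema3fa, sema4ab, sema4e, sema4ga, sema6a and sema6d, differed by -1.42 to 0.69 and had adjusted p-values of 0.0858 or more.

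Of 7 plexin genes, all of them tested, 2 rose and 1 fell (42.9%, against 17.1% of all tested genes). plxnd1, the endothelial semaphorin receptor, was bright on every array, with 13.44 and 13.47 in mutants, against 12.56 and 12.57 in WT. It rose by 0.89 ± 0.17 (SE, adjusted p = 0.0424), or 1.85-fold, and the 2 arrays of each group nearly coincided. A second plxnd1 probe lay between 0.08 and 0.66 on all arrays and was not tested. plxnc1, whose mammalian counterpart is a receptor for Semaphorin 7A, rose by 2.31 ± 0.17 (SE, adjusted p = 0.00957), the smallest adjusted p among the guidance genes by their brightest probes. It had 5.03 and 5.15 in mutants, against 2.77 and 2.80 in WT, where 1 of 2 arrays was well above background. plxna4, which with Neuropilin-1 forms a neuronal receptor for Semaphorin 3A, went the other way. It had 5.06 and 4.32 in mutants, against 7.29 and 6.61 in WT, and fell by 2.26 (SE 0.39, adjusted p = 0.0370). Its second probe gave -1.34 (adjusted p = 0.0526). plxnb2a.3, a class B plexin gene, had 5.62 and 5.92 in mutants, against 6.45 and 6.74 in WT, and did not pass (-0.83 ± 0.22, SE, adjusted p = 0.0863). plxna2, plxna3 and plxnb2a.1 differed by -0.45 to 0.98.

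The neuropilin genes, which encode the co-receptors of class 3 semaphorins and of vascular endothelial growth factors, also differed, and not all in the same direction. nrp2b had 13.01 and 13.20 in mutants, against 10.95 and 11.01 in WT, and rose by 2.12 ± 0.18 (SE, adjusted p = 0.0111). nrp2a rose by 1.31 ± 0.18 (SE, adjusted p = 0.0234), with 8.86 and 8.73 in mutants, against 7.43 and 7.54 in WT. nrp1b fell by 2.05 (SE 0.18, adjusted p = 0.0118), with 3.54 and 3.43 in mutants, against 5.44 and 5.63 in WT. nrp1a, with 10.30 and 9.58 in mutants, against 9.33 and 9.48 in WT, did not pass (0.53, adjusted p = 0.316). Both duplicates of neuropilin 2 were thus higher in mutants, and of the duplicates of neuropilin 1 the b copy was lower.

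Of 10 tested Eph receptor genes 1 rose and 2 fell (30%, against 17.1% of all tested genes). ephb4b, a copy of the gene for EphB4, had 12.15 and 11.63 in mutants, against 9.66 and 9.79 in WT. It rose by 2.16 ± 0.25 (SE, adjusted p = 0.0180), or 4.48-fold. Its duplicate ephb4a had 9.91 and 10.47 in mutants, against 9.48 and 9.69 in WT, and did not pass (0.60 ± 0.27, SE, adjusted p = 0.214), although the arrays did not overlap. epha4b, one of the copies of the gene for EphA4, a receptor that binds ephrins of both classes and borders hindbrain segments, had 3.86 and 4.63 in mutants, against 6.27 and 6.53 in WT. It fell by 2.16 (SE 0.33, adjusted p = 0.0299). epha4a had 5.07 and 4.92 in mutants, against 6.23 and 5.90 in WT. It fell by 1.06 (SE 0.21, adjusted p = 0.0466), and its second probe gave -1.04 (adjusted p = 0.0430), but with median scaling or unscaled signals epha4a did not pass. The third gene of that name, epha4l, had 6.36 and 5.10 in mutants, against 6.74 and 6.93 in WT (-1.10 ± 0.48, SE, adjusted p = 0.207). The estimates of these 3 EphA4 genes were thus all below 0, and 2 of the 3 passed.

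epha2a, the gene of a receptor for ephrin-A ligands, had 8.73 and 9.07 in mutants, against 8.08 and 8.16 in WT, with 0.77 ± 0.21 (SE, adjusted p = 0.0845). ephb2b, a receptor gene of the B class, differed little, with 11.94 and 12.01 in mutants, against 12.18 and 12.31 in WT (-0.27 ± 0.17, SE, adjusted p = 0.362). The remaining epha3, epha7 and epha8 differed by -0.48 to 1.00 with adjusted p-values of 0.202 or more.

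Of 11 tested ephrin genes 1 rose and 1 fell (18.2%, close to the 17.1% of all tested genes). efna5b, which encodes a ligand of EphA receptors, had 4.89 and 4.90 in mutants, against 1.30 and 2.06 in WT, where neither array was well above background. It was at least 3.75-fold higher in mutants (adjusted p = 0.0139). With normexp the log2 difference of efna5b was 0.30 and did not pass (adjusted p = 0.124). The signal added there shrinks the differences of dim genes. However, plxnc1 (0.42, adjusted p = 0.0463) and slit1b (-0.60, adjusted p = 0.0219), whose brighter groups had similar signals, still passed with normexp. The dimmer sema3ga did not. Why efna5b did not pass there was not tested. The duplicate of efna5b, efna5a, stayed too dim to be tested. efnb2b, a copy of the gene for the arterial ligand ephrin-B2, had 7.79 and 7.29 in mutants, against 8.88 and 8.75 in WT. It fell by 1.27 (SE 0.25, adjusted p = 0.0458), a 2.41-fold difference. efnb2a, the other copy, had 2.08 and 0.89 in mutants, where neither array was well above background, against 3.52 and 3.52 in WT. The WT mean was 1.73-fold above the dimmest signal taken as well above background in mutants. The difference did not pass (adjusted p = 0.0596). With ephb4b higher and efnb2b lower, a copy of the EphB4 gene and a copy of the ephrin-B2 gene moved in opposite directions. The other copies, ephb4a and efnb2a, did not pass, and no shift between arteries and veins was tested. Without a filter efnb2b did not pass, and with sample number as a block neither ephb4b nor efnb2b passed. efna1b, an ephrin-A gene, had 10.95 and 10.72 in mutants, against 10.46 and 10.497 in WT, and did not pass (0.36 ± 0.19, SE, adjusted p = 0.271). The other 7 tested ephrin genes, efna1a, efna2a, efna3b, efna4, efnb1, efnb3a and efnb3b, differed by -0.34 to 0.57, with overlapping groups in 5 of the 7.

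**Figure D2:**
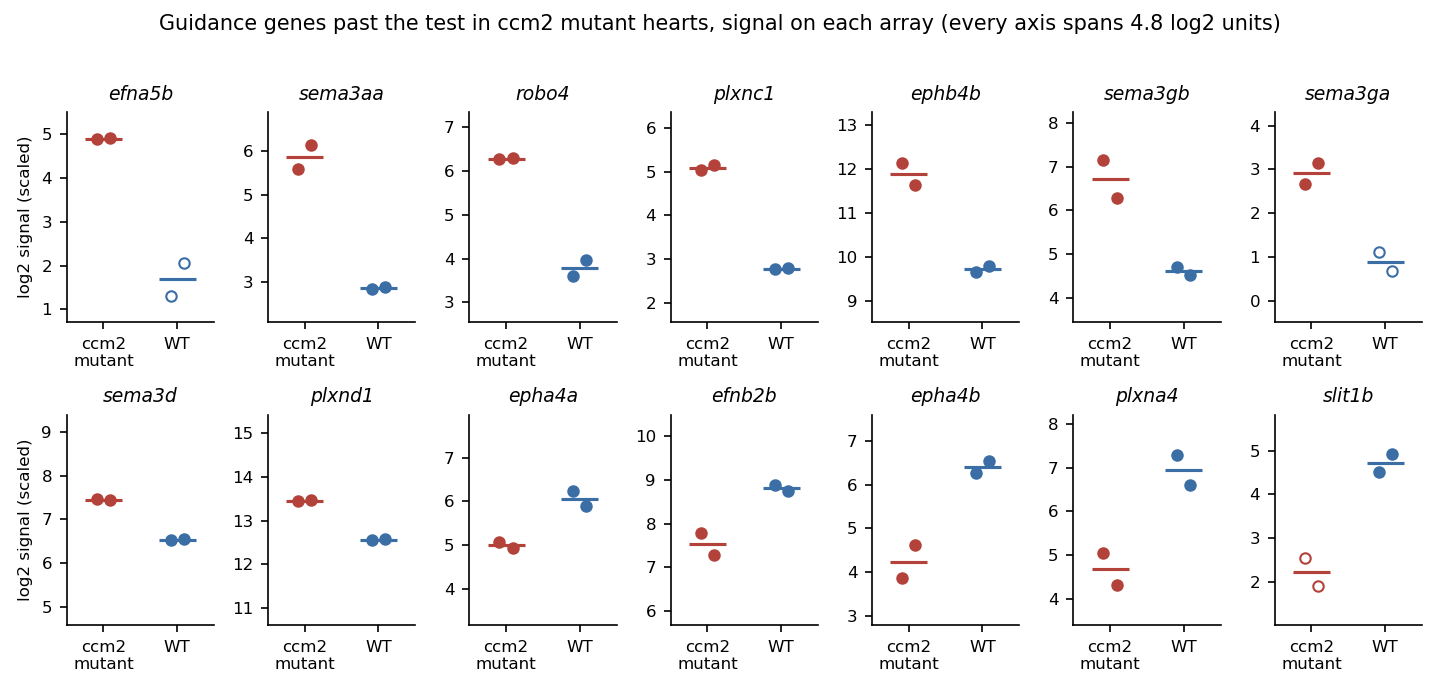
Scaled log2 signal on each array for the 14 guidance genes that passed the test, with the 2 ccm2 mutant arrays in red on the left of each panel, the 2 WT arrays in blue on the right and a bar at each mean. Open points mark a group with no array well above background, and in all 14 panels the groups are apart.

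Of 8 genes for slits and robos, all of them tested, 1 rose and 1 fell (25%, against 17.1% of all tested genes). robo4, the endothelial member of the Robo family, had 6.28 and 6.29 in mutants, against 3.61 and 3.97 in WT. It rose by 2.49 ± 0.21 (SE, adjusted p = 0.0111), or 5.64-fold. In the current RefSeq annotation (GRCz12tu) robo3, which in vertebrates guides axons across the midline, is the next protein-coding gene to robo4, and its signal lay on the other side. robo3 had 8.37 and 7.75 in mutants, against 9.28 and 9.67 in WT (-1.42 ± 0.31, SE, adjusted p = 0.0579). A dimmer robo3 probe gave -1.49 and passed (adjusted p = 0.0370), and the third gave -1.33 (adjusted p = 0.106). robo1 and robo2, likewise neighbours, had 10.41 and 10.47 for robo1 and 8.59 and 8.00 for robo2 in mutants, against 11.13 and 10.99 for robo1 and 7.97 and 7.99 for robo2 in WT. The differences were -0.62 ± 0.17 (SE, adjusted p = 0.0926) for robo1 and 0.31 ± 0.27 (SE, adjusted p = 0.482) for robo2.

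Among the ligands of these receptors, slit1b, a member best known from the nervous system, had 2.54 and 1.91 in mutants, where neither array was well above background, against 4.51 and 4.92 in WT. It was at least 3.97-fold lower in mutants (adjusted p = 0.0211). The normexp value above is smaller, but the signal added there limits it for so dim a gene. It therefore does not test that bound. slit2 and slit3, which are known in the heart as well as the nervous system, both lay higher in mutants without passing. slit2 had 8.71 and 9.06 in mutants, against 7.64 and 8.19 in WT (0.97 ± 0.29, SE, adjusted p = 0.103), and its second probe gave 1.62 and passed (adjusted p = 0.0283). slit3 had 10.75 and 10.58 in mutants, against 9.71 and 9.90 in WT (0.86 ± 0.19, SE, adjusted p = 0.0582). slit1a had overlapping groups, with 3.05 and 3.82 in mutants, against 2.68 and 3.39 in WT.

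Of the netrin and Unc5 genes 4 of 7 were tested, and limma called 0, against 17.1% of all tested genes. An unadjusted p under 0.05 was found for 3 of the 4, against 4110 of 11526 over all tested genes. ntn1b, a copy of the gene for the classical axon attractant Netrin-1, had 7.85 and 7.56 in mutants, against 7.14 and 6.57 in WT (0.85 ± 0.28, SE, adjusted p = 0.126). ntn4, the gene of a netrin found in basement membranes, had 3.13 and 4.04 in mutants, against 6.07 and 5.07 in WT (-1.98 ± 0.51, SE, adjusted p = 0.0775). unc5b, a netrin receptor gene that is also active in endothelium, had 2.97 and 2.39 in mutants, against 3.86 and 3.91 in WT (-1.21 ± 0.27, SE, adjusted p = 0.0586). A second probe had 1.89 and 1.72 in mutants, where neither array was well above background, against 4.04 and 3.23 in WT, and was at least 1.87-fold lower (adjusted p = 0.0415). The third unc5b probe was below that level on all arrays, with 0.59 and 1.06 in mutants, against 2.42 and 2.18 in WT (adjusted p = 0.0352). ntn1a differed by -0.05. The Golgi gene unc50 had 10.14 and 10.01 in mutants, against 10.07 and 9.88 in WT (0.10 ± 0.18, SE, adjusted p = 0.746).

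The 8 genes left out of the test for low signal were efna3a, efna5a, epha5, epha6, ntn2, ntng2a, sema5ba and unc5da. Just outside the filter was epha5, with 1.78 and 2.76 in mutants and 1.44 and 2.00 in WT, and just inside it was sema3h, given above. A passing probe need be bright in only 1 group, as efna5b and slit1b were. By their brightest probes, sema3ga, efna5b, sema3h and epha8 exceeded the 40th percentile only in mutants, and efnb2a and sema3c only in WT. Among the further pathway genes below, mical3b did so only in mutants and rgma only in WT. The counts above are thus of genes that could be tested and not of all 65.

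Several probes allowed a check within a gene. Of the 20 guidance genes with more than 1 tested probe, 18 had estimates of the same sign in all their probes, and the exceptions were sema3e and slit1a. Taking a gene as called when any of its tested probes passed gave 20 of 57 genes (35.1%), against 19.0% of all tested genes by the same rule, with 11 higher and 9 lower. The 6 genes added in this way were robo1, robo3, sema3c, sema6ca, slit2 and unc5b. For robo1 the probe that passed was not well above background on any array, with 1.56 and 1.59 in mutants, against 2.54 and 2.77 in WT. The passing probes of sema3c, unc5b and robo1 exceeded the filter level only in WT, so the group in which they were higher admitted them to the test. How often this held among all tested genes was not examined, so the shares by this rule cannot be compared on equal terms. A gene with many probes has more chances to be called by this rule, and the number of probes per gene was not balanced between the guidance genes and the rest.

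**Figure D3:**
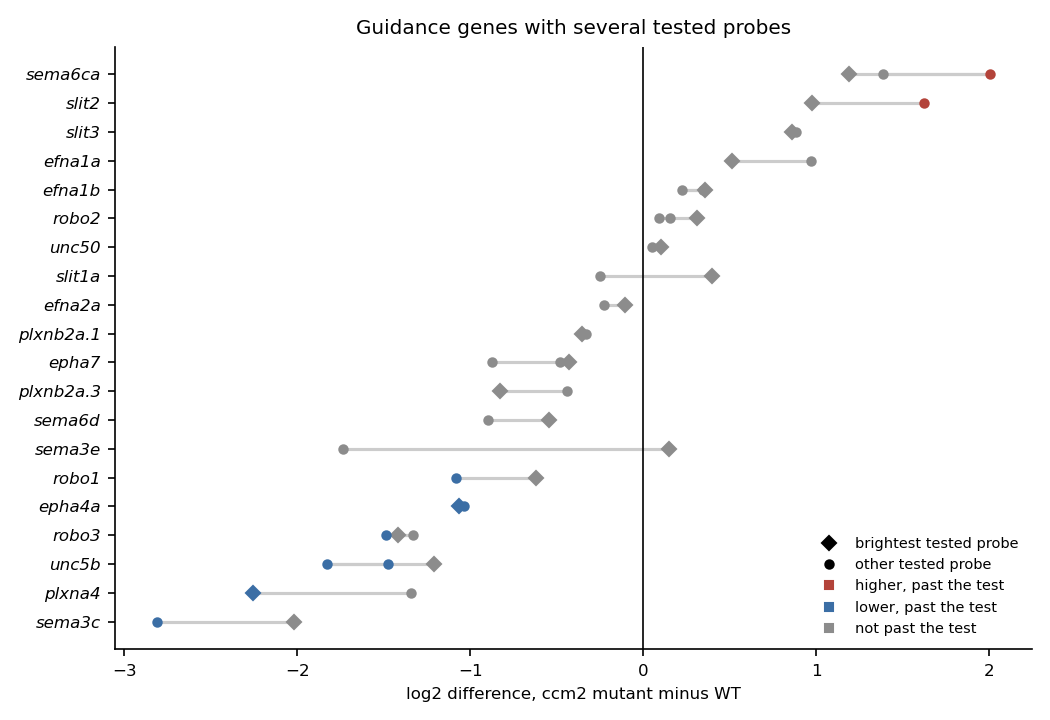
Log2 difference (ccm2 mutant minus WT) of each tested probe for the 20 guidance genes with several tested probes. Diamonds are the brightest probe of a gene, which was used for the counts, circles are its other probes, and colour shows whether a probe was higher, lower or not past the test. 18 genes have all their probes on the same side of 0.

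Other genes of the same pathways showed changes in both directions as well. Of 71 genes in a list of further ligands, co-receptors and intracellular effectors, 45 were on the array by name and 39 were tested, of which 7 rose and 5 fell (30.8%, against 17.1% of all tested genes), with a median log2 difference of 0.32, against -0.04 over all tested genes. Beside the neuropilins, rgma, the gene of a repulsive ligand of neogenin, was at least 1.96-fold lower in mutants (adjusted p = 0.0426). It had 0.58 and 1.75 in mutants, where neither array was well above background, against 3.48 and 3.91 in WT. Among the effectors, dpysl2b, whose protein relays Semaphorin 3A signals to microtubules, rose by 1.36 ± 0.19 (SE, adjusted p = 0.0244), whereas its relative dpysl5a, a gene of developing neurons, fell by 1.48 (SE 0.19, adjusted p = 0.0214). vaspa and vaspb, which encode actin regulators of the Ena/VASP family, rose by 1.71 ± 0.32 and 1.31 ± 0.23 (SE, adjusted p = 0.0426 and 0.0380). fyna, a Src-family kinase gene, fell by 1.71 (SE 0.25, adjusted p = 0.0279). mical3b, the gene of an enzyme that oxidises actin, had 4.07 and 5.46 in mutants, against 2.08 and 1.84 in WT, where neither array was well above background, and was at least 3.43-fold higher (adjusted p = 0.0430). dpysl3, another relative, fell by 0.94 (SE 0.19, adjusted p = 0.0475).

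Markers of cell types that a hand-dissected heart sample can hold, neighbouring tissue included, differed between the groups. In such RNA a change in the number of cells of a type, from the heart or beside it, and a change in RNA per cell cannot be told apart. For scale, 8.10% of all tested genes were higher and 9.03% lower in mutants. Endothelial and endocardial markers had 4 of 11 higher and 0 lower, with summed linear signals of 73554 and 63400 in mutants, against 39603 and 40235 in WT. Of these marker estimates 9 were above 0 and 2 below. plxnd1, robo4, ephb4b, nrp2a and nrp2b moved in the same direction as the sums. nrp1b (-2.05) and efnb2b (-1.27) fell, and efnb2a and unc5b had estimates below 0 that did not pass by their brightest probes. Leukocyte markers had 6 of 6 higher, with sums of 3480 and 3674 in mutants, against 828 and 752 in WT, the same direction as plxnc1. Nervous system markers had 6 of 14 lower and 2 higher, with a median log2 difference of -1.18, the direction of plxna4, epha4a, epha4b and slit1b. sema3aa, efna5b and dpysl2b went the other way. nefma, nefmb and neurog1 were not well above background on any array. The summed nervous signal was 6961 and 6544 in mutants, against 3576 and 4559 in WT, and without tubb5, a tubulin gene that rose and was left out after its value was seen, 1207 and 1130 in mutants, against 1018 and 1637 in WT. Cartilage and pharynx markers summed to 104 and 97.4 in mutants, against 2799 and 2928 in WT, with 2 of 2 tested lower and matn1 and sox9a not well above background on any array. Red blood cell markers had 5 of 6 lower and 1 higher, with sums of 14357 and 10792 in mutants, against 100258 and 88030 in WT. Smooth muscle and outflow tract markers had 2 of 5 lower, with sums of 14217 and 12820 in mutants, against 26621 and 28165 in WT. The 2 were tagln and fbln5, and the other 3 did not pass. fbln5 had 9.95 and 9.77 in mutants, against 13.23 and 13.48 in WT. Epicardial markers had 2 of 5 higher, with sums of 17515 and 17324 in mutants, against 7378 and 7343 in WT. Most of the epicardial sum came from aldh1a2, with 13.96 and 13.94 in mutants, against 12.59 and 12.62 in WT. The other 3 of these 5 estimates were below 0, and the median of the list was -0.07. The part of these cell types in the guidance gene differences was not tested.

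**Figure D4:**
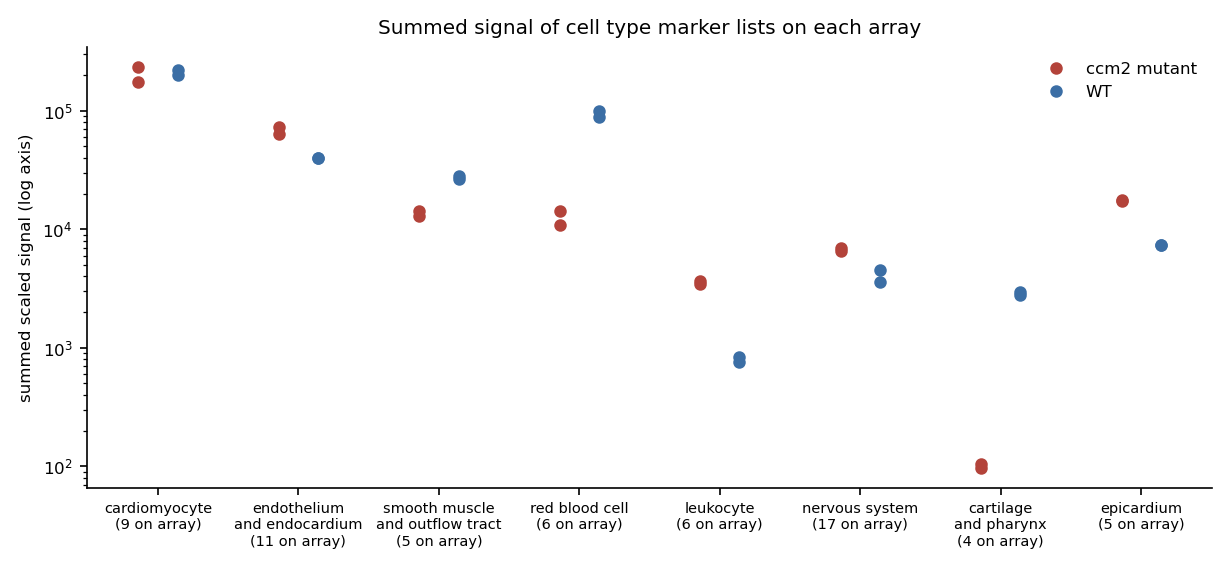
Summed scaled signal of each marker list on each array (log axis), with the 2 ccm2 mutant arrays in red on the left and the 2 WT arrays in blue on the right of each list. The endothelial, leukocyte, epicardial and nervous system sums are higher in both mutants than in the WT arrays, the red blood cell, smooth muscle and cartilage sums lower, and the cardiomyocyte sums overlap. Most of the nervous system sum in mutants is tubb5, without which the groups overlap, and most of the epicardial sum is aldh1a2. In both of these lists most estimates are below 0.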

How the data were processed

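Per the file headers, the intensity values that the authors deposited came from Agilent Feature Extraction 10.5.1.1, which took a spatial trend as background, removed a multiplicative trend and replaced very dim signals by surrogates. Raw median intensities were deposited too, and a file of headers held array statistics (other values). Spots of 50 repeated probes were averaged, and symbols came from the platform annotation, updated through RefSeq gene identifiers or accessions. Log2 signals were scaled at the 75th percentile of each array. Probes were tested with limma 3.58.1 (R 4.3.3), two-sided, using lmFit and eBayes, over 26827 probes, with Benjamini-Hochberg adjustment over all of them at 0.05. A gene counts through its brightest tested probe. The headers give how many features were well above background, so the same number of brightest features was taken. Where neither array of a group reached them, "at least" folds use that signal. Such folds take no account of the spread between arrays. The fit was also run on simulated data with set variances and differences, which checks the code and not the calls made here. No coordinates are given, since the array and the reference annotation use different builds.

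The members and lists were chosen with earlier results of these data known. Named genes are those past the test (with one exception among the further pathway genes, not reported here), the smallest p and brightest member of each role, genes whose probes disagree, and those at the filter; duplicates and partners (sema3ab, epha4l, ephb4a, slit3, robo2, ntn4, unc50) and the pathway genes nrp1a, nrp2a, vaspb and dpysl3 were added after their values were seen. Alternatives covered scaling, background, filter, variance model, probe averaging, sample number as a block and left-out arrays. Figures were drawn with matplotlib 3.10.9.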

Additional observations from a re-analysis of the deposited data

How the results depend on the processing

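Of the 14 called guidance genes, 13 passed with median scaling, 14 with quantile normalization, 13 with unscaled signals and 12 with normexp on raw median signals, where efna5b was lost and sema3ga turned its sign (-0.0090). The arrays of the 14 do not overlap between groups, so leaving out an array could not turn a direction. Without 1 array the number called higher ranged from 0 to 1 and lower from 0 to 0 among guidance genes, and from 0 to 261 and 0 to 306 among all genes, while 23 to 32 of the 57 had an unadjusted p under 0.05. The further pathway genes gave 0 calls whichever array was left out, with 1 array fewer in each fit. When the sample number entered as a replicate block, the guidance calls were 4 higher and 2 lower, all among the 14, with 399 and 475 among all genes and 4 among the pathway genes, against 12. The labels do not say that numbers pair samples, and deviations of same-numbered samples correlated at 0.07. With no filter 2 guidance genes were lower (6 higher), with 511 higher and 607 lower among all genes and 4 pathway genes. Of the 14 called genes 8 passed, without efnb2b, epha4a, plxna4, plxnd1, sema3d and sema3gb. A stricter filter, above the 60th percentile on all 4 arrays, tested 28 guidance genes. Only 4 of the 14 were among them, and all 4 passed. That fit called 9 guidance genes higher and 4 lower, with 25.8% of all genes called. Normexp gave 14 higher and 9 lower guidance genes, and 1354 genes higher and 1616 lower in all (25.8% called). Its median was -0.13 in place of 0.10 over the guidance genes and -0.08 in place of -0.04 over all genes. A variance trend with a robust prior gave 13 higher and 8 lower guidance genes, without sema3ga (adjusted p = 0.0540), and 1440 higher and 1623 lower in all. Averaging the probes of a gene gave 11 higher and 8 lower guidance genes of 57, with 1977 of all genes called (17.2%). Other signs that turned were those of sema3e (-0.048 with normexp, -0.80 with averaged probes), sema3h (-0.085) and slit1a (-0.11) with normexp, and sema3ab without mutant replicate 2 (0.36; -1.18 without mutant replicate 1), none of them called. The cause of these shifts was not tested.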

Other observations

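The dimmer sema3e probe had 0.77 and 3.18 in mutants, against 3.67 and 3.76 in WT, so that mutant replicate 1 lay far below the other 3 arrays (-1.74 ± 0.87, SE, adjusted p = 0.257). The dimmer slit1a probe had 2.65 and 2.36 in mutants, against 3.23 and 2.27 in WT (adjusted p = 0.712). Beside its tested probe, robo4 had 2 probes too dim to be tested. The first had 2.12 and 2.54 in mutants, against 2.05 and 1.29 in WT. The other robo4 probe had 1.94 and 2.55 in mutants, against 0.85 and 1.00 in WT.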
